A study of Mus musculus with 18 samples.

Results

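Ifitm1, Ifitm2 and Ifitm3 encode the interferon-induced transmembrane proteins that limit virus entry, and they sit close together on mouse chromosome 7. They were followed here as 3 of the 53379 genes in a count table of 18 RNA-seq libraries. They were chosen by their BMT against BM values in each tissue and by the difference of these effects between gut and liver in the same table, so those values are descriptions below and carry no test. BMT mice were lethally irradiated female BALB/cJ recipients, 6 to 8 weeks old, given 10000000 bone marrow cells together with 1000000 T cells, and BM mice were the same kind of recipient given 10000000 bone marrow cells alone. Irradiation and the marrow graft are therefore common to both groups, and the sources used here do not give the donors' strain. Tissue was taken on day 7 as bulk liver (code LIV) and as isolated intestinal epithelium under 2 library codes, SI and LI, with 3 BMT and 3 BM libraries in each of the 3 tissues. Numbers in the library descriptions recur across tissues and are read here as 6 mice, with BMT mice 6, 9 and 10 and BM mice 2, 4 and 5.

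The intestinal codes and sample titles disagree: code SI libraries are titled large intestine and code LI libraries are titled small intestine. Markers fixed for each region ran against the titles. The summed level of 8 small intestine markers was 8129 to 14460 CPM (counts scaled to a library total of 1000000) in code SI BMT libraries and 19620 to 26890 CPM in code SI BM libraries. In code LI it was 290 to 584 CPM in BMT libraries and 471 to 523 CPM in BM libraries. The 8 large intestine markers summed to 290 to 697 CPM in BMT and 303 to 1120 CPM in BM libraries of code SI. In code LI they summed to 5842 to 8835 CPM in BMT and 10770 to 11810 CPM in BM libraries. In BM mice 7 of them were called lower and 1, Ang4, higher in code SI than in code LI (edgeR, adjusted p under 0.05), beside 28.8% of all genes called. Of these markers, the hindgut genes Hoxb13, Hoxd13 and Hoxa13 were at 0 counts in every code SI library and detected in every code LI library. The codes are therefore used here in place of the titles. Liver markers summed to at least 104400 CPM in every liver library, and the epithelial markers Cdx1 and Cdx2 were at 0 there. Library totals ran from 18845483 to 25610937 counts, so that a floor of 3 counts equals 0.117 to 0.159 CPM. Among the BM livers, mouse 5 had the highest and mouse 2 the lowest level of several interferon-induced genes (Isg15 at 257 and 22.1 CPM), and liver results that rest on either are given without it.

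IFITM proteins are short membrane proteins of the cell surface, endosomes and lysosomes that hinder the fusion of enveloped viruses with the cell. Interferons act through Jak kinases and interferon regulatory factors on short elements in the promoters of such genes, among them the interferon-stimulated response element (ISRE) and the gamma-activated site (GAS). Ifitm3 is known in mice for limiting influenza virus, and human IFITM1 was described on lymphocytes as a partner of the tetraspanin CD81.

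In GRCm38 coordinates of the deposited table, Ifitm2 lies at chr7:140954837-140955987 on the minus strand, Ifitm1 at chr7:140967221-140969825 on the plus strand and Ifitm3 at chr7:141009586-141010770 on the minus strand. Their merged exons, 3 for Ifitm1 and 2 each for Ifitm2 and Ifitm3, span 1094, 655 and 678 bases. The promoters are printed to show their motif content, and a link between motifs and the response to T cells was not tested. Each runs from 250 bases before to 50 bases after the RefSeq start on GRCm38.p6, on the strand of the gene, with matches to an ISRE-like motif (GAAA, any 2 bases, GAAA) or a GAS-like motif (TTCNNNGAA), searched on both strands, in capitals.
Ifitm1, chr7:140967826-140968125, plus strand: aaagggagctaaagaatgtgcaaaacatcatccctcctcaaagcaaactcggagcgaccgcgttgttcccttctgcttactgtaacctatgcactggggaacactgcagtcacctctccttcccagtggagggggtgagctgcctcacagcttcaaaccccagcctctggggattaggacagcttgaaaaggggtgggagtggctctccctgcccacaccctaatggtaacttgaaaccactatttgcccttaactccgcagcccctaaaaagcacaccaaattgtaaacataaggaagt
Ifitm2, chr7:140955912-140956211, minus strand: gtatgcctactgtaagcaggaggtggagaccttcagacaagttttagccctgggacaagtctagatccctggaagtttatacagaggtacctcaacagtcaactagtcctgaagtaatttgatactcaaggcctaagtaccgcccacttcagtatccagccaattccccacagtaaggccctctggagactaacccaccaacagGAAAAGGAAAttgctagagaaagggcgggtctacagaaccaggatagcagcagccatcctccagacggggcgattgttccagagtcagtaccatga
Ifitm3, chr7:141010695-141010994, minus strand: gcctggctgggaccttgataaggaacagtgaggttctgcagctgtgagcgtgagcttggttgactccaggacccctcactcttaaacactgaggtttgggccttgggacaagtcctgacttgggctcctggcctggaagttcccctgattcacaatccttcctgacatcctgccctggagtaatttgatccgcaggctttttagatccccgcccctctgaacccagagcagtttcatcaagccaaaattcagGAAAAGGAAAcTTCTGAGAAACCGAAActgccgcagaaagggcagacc

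The Ifitm3 window held 2 ISRE-like matches, and its single GAS-like match overlapped the second of them. The Ifitm2 window held 1 ISRE-like match, with the same 10 letters as the first match of Ifitm3, and no GAS-like match. Neither motif was found in the Ifitm1 window. The gut log2 fold changes of Ifitm1 (5.21 in code SI and 7.14 in code LI) were the largest of the 3 genes. No link between them and the motifs was tested. That window starts at position 140967826, inside the counted Ifitm1 gene, which begins at position 140967221. Neither the bases before the start of the counted gene nor those from there to the window were searched. Of all 32851 promoter windows of that length in the table, 3.44% held at least 1 ISRE-like match, 0.225% held 2 or more and 8.30% held a GAS-like match. A match describes letters in a window and was not tested as a binding site.

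The coding sequences of the 3 genes were 80.8 to 81.9% identical in pairs, and the longest run shared by any pair was 69 bases. Of the 100-base windows of the Ifitm2 transcript, 34.9% also occur in other genes, namely the gene models Gm11951, Gm8865 and Gm45717, whereas no such window of Ifitm1 or Ifitm3 does. Gm45717 shares exon bases with Ifitm2 and had 0 counts in all libraries, while Gm11951 had 7 to 48 and Gm8865 0 to 19 counts per library. Ifitm2 counts are therefore uncertain by reads that the counting left out or assigned to a copy.

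Ifitm1 was nearly silent in the intestinal epithelium of BM mice and clearly present in that of BMT mice. In code LI epithelium it stood at 64.5, 51.4 and 58.9 CPM in BMT mice 6, 9 and 10, against 0.204, 0.314 and 0.664 CPM in BM mice 2, 4 and 5. The lowest BMT library was far above the highest BM library. The log2 fold change was 7.14 ± 0.30 (SE, 3 against 3 libraries), and the mean of the BMT libraries was 148-fold that of the BM libraries, on 3824 against 28 summed counts.

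In code SI epithelium Ifitm1 reached 10.6, 14.9 and 17.3 CPM in BMT mice 6, 9 and 10, against 0.5, 0.136 and 0.563 CPM in BM mice 2, 4 and 5. The groups again did not overlap, although the BMT level was lower than in code LI. The log2 fold change was 5.21 ± 0.41, a 35.7-fold ratio of means, on 950 against 25 summed counts. The BM level rests on few reads, since 1 library of code SI lay at the floor of 3 counts. Ifitm1 passed the filter on low counts in the gut mainly through the BMT libraries, with at least 10 counts in only 2 of 3 code SI and 1 of 3 code LI BM libraries.

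Liver showed no such contrast for Ifitm1. The level was 11.7, 13.0 and 13.6 CPM in the BMT livers of mice 6, 9 and 10, against 7.78, 6.46 and 16.6 CPM in the BM livers of mice 2, 4 and 5. The BM liver of mouse 5 exceeded all BMT livers, so the groups overlapped. The log2 fold change was 0.52 ± 0.29, and without mouse 5 it was 0.95.

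**Figure D1:**
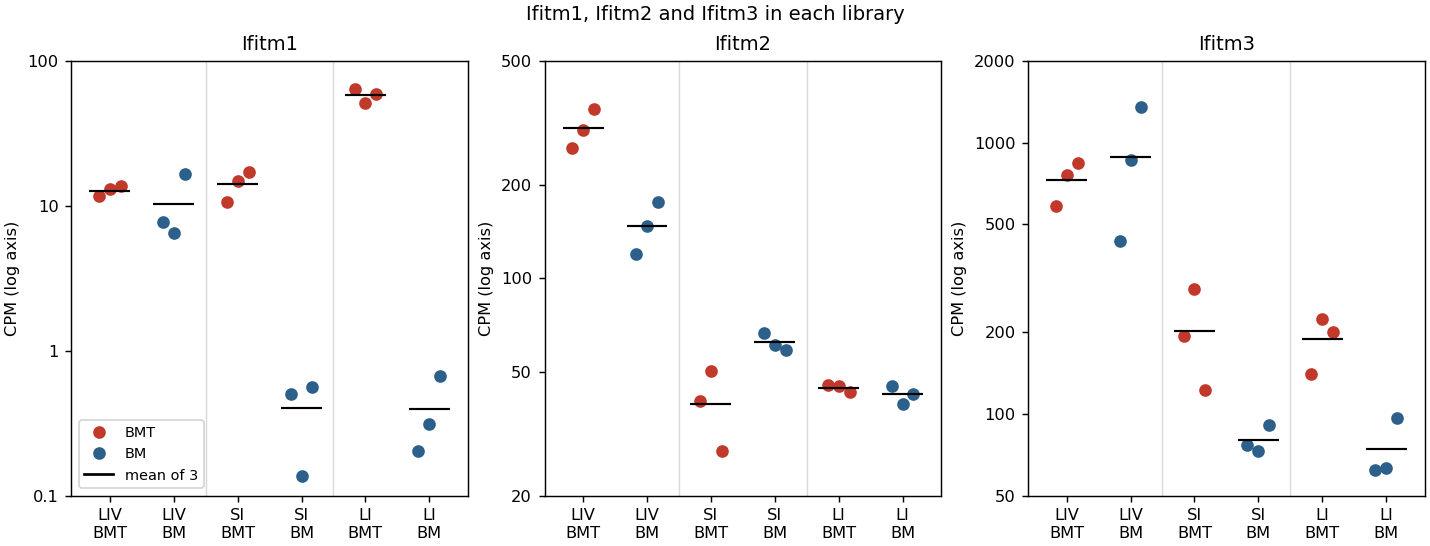
Level of Ifitm1, Ifitm2 and Ifitm3 in each of the 18 libraries, in CPM on a log axis that differs between panels. Points are libraries (BMT red, BM blue), black lines are means of 3 and grey lines part the tissues. In code LI, Ifitm1 lies at 51.4 to 64.5 CPM in BMT libraries and at 0.204 to 0.664 CPM in BM libraries.

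Ifitm2 ran the other way, higher with T cells in liver and lower in code SI epithelium. In liver it stood at 262, 299 and 350 CPM in BMT mice 6, 9 and 10, against 120, 147 and 176 CPM in BM mice 2, 4 and 5. All BMT livers were above all BM livers, with a log2 fold change of 1.22 ± 0.16.

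In code SI epithelium Ifitm2 was at 40.2, 50.4 and 27.7 CPM in BMT mice 6, 9 and 10, against 66.5, 61.1 and 58.96 CPM in BM mice 2, 4 and 5. Here all BMT libraries were below all BM libraries, with a log2 fold change of -0.62 ± 0.20. Code LI showed neither direction: the BMT libraries of mice 6, 9 and 10 had 45.4, 45.0 and 43.1 CPM and the BM libraries of mice 2, 4 and 5 had 45.2, 39.5 and 42.5 CPM. The groups overlapped in code LI, and the log2 fold change was 0.08 ± 0.12.

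Ifitm3 had the highest counted level of the 3 per base in every library, and its gut and liver values parted as well. In BM libraries of code SI it was only 1.12 to 1.49 times Ifitm2 per base. The order there thus rests on Ifitm2 counts that may miss reads shared with copies. In code SI epithelium Ifitm3 stood at 194, 288 and 122 CPM in BMT mice 6, 9 and 10, against 76.9, 73.1 and 91.2 CPM in BM mice 2, 4 and 5. In code LI it stood at 140, 224 and 200 CPM in the same BMT mice, against 62.2, 63.4 and 96.8 CPM in the same BM mice. Neither pair of gut groups overlapped, and the log2 fold changes were nearly equal, 1.36 ± 0.25 in code SI and 1.35 ± 0.22 in code LI.

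The liver values of Ifitm3 overlapped widely. BMT mice 6, 9 and 10 had 582, 758 and 839 CPM, against 433, 867 and 1351 CPM in BM mice 2, 4 and 5. The BM livers held both the lowest and the highest value, and the log2 fold change was -0.09 ± 0.34. Without BM mouse 5 it was 0.27 and without BM mouse 2 it was -0.40, so its sign depended on those libraries.

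Set side by side, the BMT effects on Ifitm1 and Ifitm3 were larger in both gut sets than in liver, and that on Ifitm2 was larger in liver. In a single fit over all 18 libraries with mouse as a term, the BMT effect on Ifitm1 was larger than in liver by 4.65 ± 0.38 on the log2 scale in code SI and by 6.62 ± 0.37 in code LI. The differences from liver for Ifitm3 were 1.31 ± 0.37 in code SI and 1.33 ± 0.37 in code LI. Ifitm2 had the opposite sign, with differences from liver of -1.87 ± 0.24 in code SI and -1.18 ± 0.24 in code LI. Between the gut sets, code SI minus code LI, the differences were -1.98 ± 0.49 for Ifitm1, -0.69 ± 0.24 for Ifitm2 and -0.03 ± 0.37 for Ifitm3. Both differences from liver use the same liver libraries.

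As background, 15.0% of the 17275 genes in that fit were called at an adjusted p under 0.05 for code SI minus liver, 18.8% for code LI minus liver and 4.91% for code SI minus code LI. Within tissues, BMT against BM called 10.8% of 14134 genes in liver, 23.4% of 14621 in code SI and 41.4% of 14880 in code LI. Nothing is read from these shares for the 3 genes, because the same contrasts chose them. The share of all genes whose BMT and BM libraries did not overlap is not given here. A lack of overlap in the 3 genes is therefore a description only.

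**Figure D2:**
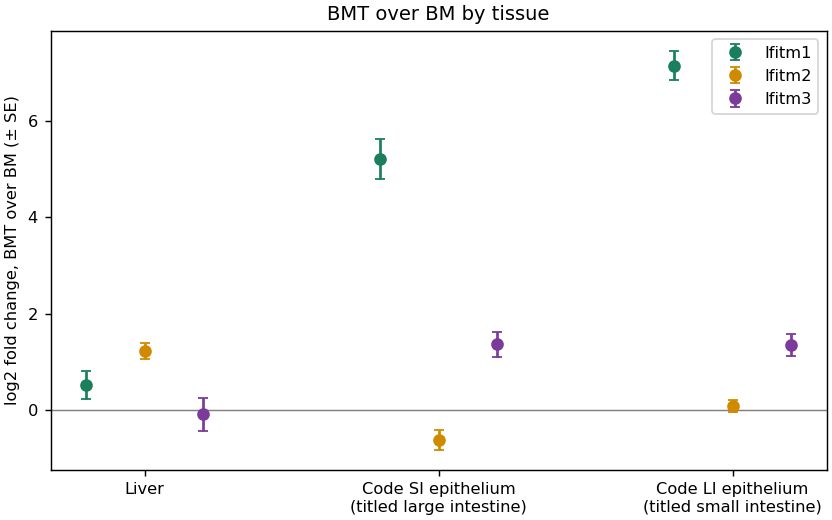
Log2 fold change of BMT over BM with its standard error (bars) for each of the 3 genes in liver and the 2 gut sets, 3 against 3 libraries each. Ifitm1 reaches 5.21 and 7.14 in the gut and 0.52 in liver, while Ifitm2 is at 1.22 in liver and at -0.62 in code SI.

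In BM mice all 3 genes stood at much lower levels in gut epithelium than in liver. The log2 difference of code SI over liver was -5.30 ± 0.33 for Ifitm1, -1.90 ± 0.15 for Ifitm2 and -4.00 ± 0.25 for Ifitm3. For code LI over liver the values were -5.29 ± 0.33, -2.45 ± 0.16 and -4.14 ± 0.26 in the same order of genes. Of all 16107 genes in that fit, 33.6% were called lower in code SI and 32.4% lower in code LI than in liver. These gut against liver values are descriptions too, since the same BM libraries enter the differences that chose the genes.

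Between the BM gut sets, code SI over code LI, Ifitm2 stood higher by 0.55 ± 0.15 on the log2 scale. Ifitm3 differed by 0.15 ± 0.23 and Ifitm1 by -0.01 ± 0.41. The Ifitm1 value rests on 25 and 28 summed counts. Of all genes in that fit 28.8% were called in either direction, and these 3 values carry no test either, because the BM libraries of both gut sets enter the contrasts that chose the genes.

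Levels per kilobase of merged exon allow the 3 genes to be compared with each other. Their summed level was 1547 ± 260 CPM per kb in BMT livers and 1538 ± 725 in BM livers (SD, n = 3 each). It was 370 ± 139 in BMT and 214 ± 11.9 in BM libraries of code SI, and 399 ± 57.2 in BMT and 174 ± 29.5 in BM libraries of code LI. The gut sums were thus higher in BMT, and the liver sums overlapped.

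The make-up of that sum shifted in opposite directions in liver and gut. Ifitm3 made up 79.4 ± 3.4% of it in BMT and 55.3 ± 3.9% in BM libraries of code SI, and 69.01 ± 6.43% in BMT and 62.1 ± 5.9% in BM libraries of code LI. The Ifitm3 shares of code LI overlapped, with 61.8% in BMT mouse 6 and 68.6% in BM mouse 5. In liver the share of Ifitm3 was 69.1 ± 1.4% in BMT and 83.1 ± 5.4% in BM. The share of Ifitm2 in liver was 30.1 ± 1.3% in BMT and 16.3 ± 5.2% in BM, against 16.6 ± 1.5% in BMT and 44.5 ± 3.9% in BM libraries of code SI. Code LI lay close to code SI in this, with an Ifitm2 share of 17.3 ± 2.9% in BMT and 37.7 ± 6.0% in BM. All shares carry the uncertainty of the Ifitm2 counts.

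Ifitm1 contributed little except in the gut of BMT mice. Its share was 13.7 ± 3.6% in BMT and 0.198 ± 0.088% in BM libraries of code LI, 3.99 ± 2.27% in BMT and 0.168 ± 0.092% in BM libraries of code SI, and 0.762 ± 0.071% in BMT and 0.639 ± 0.235% in BM livers. The ratio of Ifitm3 to Ifitm2 per kb, which does not depend on the library total, was 2.15 to 2.44 in BMT and 3.498 to 7.40 in BM livers. In code SI it was 4.27 to 5.52 in BMT and 1.12 to 1.49 in BM libraries, and in code LI 2.99 to 4.82 in BMT and 1.33 to 2.20 in BM libraries. The groups did not overlap in any tissue, and the order of BMT and BM in liver was the reverse of that in the gut.

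**Figure D3:**
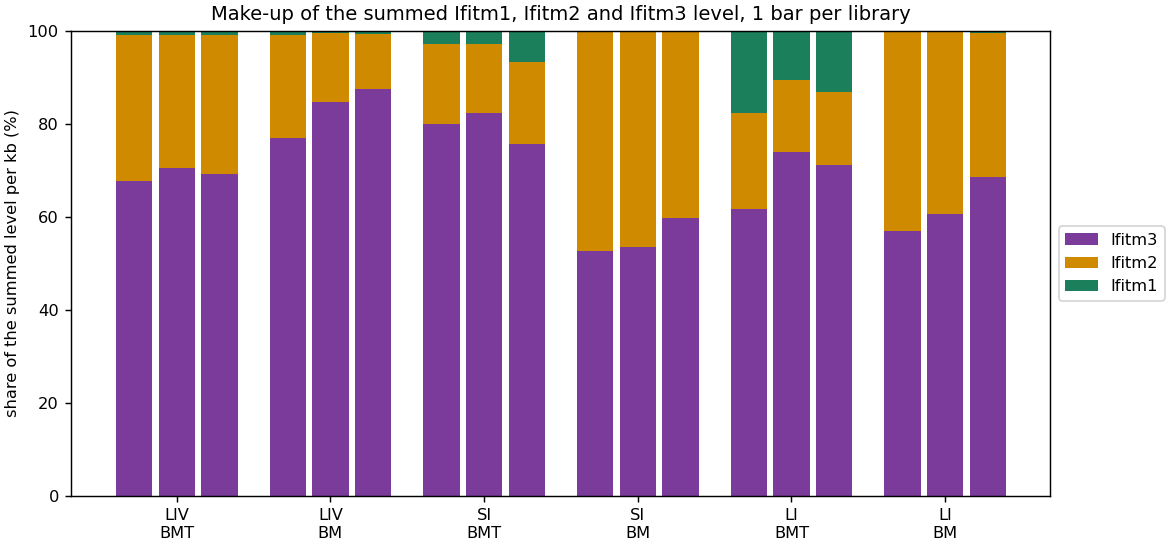
Share of each gene in the summed level per kilobase of Ifitm1, Ifitm2 and Ifitm3, in percent, with 1 stacked bar per library. Ifitm3 takes 79.4% in BMT and 55.3% in BM libraries of code SI on average, and 69.1% in BMT and 83.1% in BM livers.

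The other members of the family were scarce. Ifitm6, the neighbour of Ifitm3 at chr7:141015699-141017924, had 9.74, 4.54 and 2.64 CPM in the BMT livers of mice 6, 9 and 10, against 0.181, 0.591 and 0.186 CPM in the BM livers of mice 2, 4 and 5. All BMT livers were above all BM livers, and it rose by 4.32 ± 0.69 in log2 units (edgeR, adjusted p = 0.00829). In the gut it was below the filter on low counts, with 2 summed counts in BMT and 7 in BM libraries of code SI, and 22 in BMT and 2 in BM libraries of code LI.

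Neutrophil markers moved with Ifitm6 in liver, where 10 of them summed to 126 to 525 CPM in BMT and 13.5 to 19.7 CPM in BM libraries, and all 10 were detected in every BMT liver. In code LI the sum was 661 to 1389 CPM in BMT and 71.6 to 78.9 CPM in BM libraries, but Ly6g alone made up 656 to 1363 CPM in BMT and 70.7 to 78.7 CPM in BM. Of the 10 markers 6 were detected in every BMT library of code LI and 2 in every BM library, Prtn3 and Camp were at 0 in BM, and the 3 that passed the filter rose (Ly6g, S100a8 and S100a9). Ifitm6 stayed at or below 0.850 CPM there. Their part in the Ifitm6 result was not tested. Ifitm10 had 32 counts over the BMT libraries and 0 over the BM libraries of code LI, at least 10.98-fold higher against a floor of 3 counts over the BM group. Ifitm5, a gene of bone-forming cells, did not exceed 0.330 CPM in any library, and Ifitm7 had 1 count over all libraries.

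Within 100 kb of the 3 genes lay 21 others, and most of them did not pass the test. In liver 2 of 13 tested neighbours rose, Ifitm6 and B4galnt4 (2.67 ± 0.55, adjusted p = 0.021), and none fell (1 was lower at an unadjusted p under 0.05). In code SI 1 of 11 rose, the proteasome subunit gene Psmd13 (0.62 ± 0.18, adjusted p = 0.0296), while Pgghg fell by 0.54 and Sigirr by 0.46 (log2, adjusted p = 0.0427 and 0.0456). In code LI 4 of 11 rose, with Psmd13 at 0.76 ± 0.12, B4galnt4 at 1.58 ± 0.18, Pkp3 at 0.67 ± 0.18 and Ano9 at 0.47 ± 0.12 (adjusted p = 0.00056, 7.77e-05, 0.0134 and 0.0107). No neighbour tested in the gut came near the log2 fold changes of Ifitm1, while background call rates were 10.8, 23.4 and 41.4% in liver, code SI and code LI.

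Many genes of the interferon pathway rose in the gut of BMT mice, and few were called in their livers. Of its ligands, only Ifng, which encodes interferon gamma, passed the filter on low counts among 21 interferon genes. In code LI it had 9.39, 9.70 and 5.29 CPM in BMT mice 6, 9 and 10, against 0, 0 and 0.0781 CPM in BM mice 2, 4 and 5 (adjusted p = 2.37e-06). In code SI it had 3.56, 3.60 and 3.30 CPM in the same BMT mice and 0 counts in all BM libraries, at least 73.9-fold higher against a floor of 3 counts over the BM group (adjusted p = 2.52e-05). Liver gave 0.652, 0.851 and 1.98 CPM in BMT and 0, 0.136 and 0.373 CPM in BM, with a log2 fold change of 2.90 ± 0.77 at an adjusted p of 0.0512. The liver value was called with DESeq2 (adjusted p = 0.00263). It was also called in edgeR with the title number as a block (adjusted p = 0.0229), but that block joins BMT and BM libraries of different mice and does not pair the samples.

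The receptor genes tested, 6 in each tissue, are too few to set against the 23.4, 41.4 and 10.8% of all genes called in code SI, code LI and liver. None of 6 was called in code SI with edgeR or DESeq2, and 1 had an unadjusted p under 0.05. In code LI 1 rose, Ifnar2 of the type I receptor (1.44 ± 0.21, adjusted p = 0.00033), and Ifngr1 of the interferon gamma receptor stood at 0.32 ± 0.12 (adjusted p = 0.0593). In liver 1 rose, Ifnlr1 of the type III receptor (2.22 ± 0.35, adjusted p = 0.00812), which stood at 0.364 CPM or less in BM livers.

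Among 11 signalling genes 7 rose and none fell in code SI, 4 rose and 1 fell in code LI, and none was called in liver with edgeR or DESeq2, where 1 had an unadjusted p under 0.05. Among all genes 11.6% in code SI and 20.4% in code LI were called higher, and 10.8% in liver were called in either direction. The 7 of code SI were 4 without BMT mouse 9 or BMT mouse 10, 3 without BM mouse 2 and 2 without BM mouse 4. Irf1, an interferon-induced transcription factor, rose by 0.78 ± 0.16 and 1.03 ± 0.17 in code SI and code LI (adjusted p = 0.005 and 0.000861), and Irf7, which drives type I interferon genes, by 1.13 ± 0.28 and 1.92 ± 0.18 (adjusted p = 0.0137 and 1.61e-05). In liver Irf1 was at -0.43 ± 0.39 and Irf7 at -0.53 ± 0.50. Irf2, which can repress interferon-induced genes, fell by 0.42 (log2) in code LI (adjusted p = 0.0328).

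Of 7 inhibitors of the pathway, 3 rose and 1 fell in code SI, 3 rose and none fell in code LI (edgeR, DESeq2 or an unadjusted p under 0.05), and 1 rose in liver. Among all genes 11.6, 20.4 and 7.46% were called higher in code SI, code LI and liver. Usp18, which shuts off type I signalling, rose by 3.41 ± 0.39 in code SI and 3.68 ± 0.24 in code LI (adjusted p = 0.00014 and 1.58e-06). Socs1 rose by 2.00 ± 0.27 and 2.86 ± 0.39 (adjusted p = 0.000395 and 0.00021). In liver Usp18 was at -0.14 ± 0.53 and Socs1 at 0.27 ± 1.07. Socs3, which restrains Stat3, differed in direction, with a rise of 1.65 ± 0.23 in liver (adjusted p = 0.00539) and a fall to a log2 fold change of -1.75 ± 0.18 in code SI (adjusted p = 7.76e-05).

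Of 23 antiviral effector genes tested, 14 rose in code SI and 19 in code LI, and none fell in either with edgeR, with DESeq2 or at an unadjusted p under 0.05. Their median log2 fold change was 1.05 in code SI and 1.68 in code LI, beside medians over all genes of 0.02 and 0.00. Genes called higher made up 11.6 and 20.4% of all genes in those fits. In code SI the number ran from 9, without BM mouse 4, to 14 when single libraries were left out. Rsad2, which makes an antiviral nucleotide, rose by 2.21 ± 0.42 in code SI and 2.83 ± 0.22 in code LI (adjusted p = 0.00326 and 5.59e-06). Bst2, which tethers budding virus, rose by 2.00 ± 0.31 and 2.30 ± 0.24 (adjusted p = 0.00106 and 3.51e-05). Isg15, a ubiquitin-like modifier, rose by 3.07 ± 0.27 in code LI (adjusted p = 1.15e-05) and stood at 1.18 ± 0.43 in code SI (adjusted p = 0.0694).

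No rise of the effectors was called in liver. None was called higher there with edgeR or DESeq2, and none had a higher value at an unadjusted p under 0.05. Lower values at an unadjusted p under 0.05 were found for 7, of which 1 fell, Rsad2 by 1.71 (log2, adjusted p = 0.00575), and the list median was -0.54 beside -0.02 over all genes. Calls over all liver genes were 7.46% higher and 3.35% lower. Without the BM liver of mouse 2, 7 effectors were called lower, and without that of mouse 5, 1 was called higher. Isg15 in liver was at 15.6, 35.9 and 50.3 CPM in BMT mice 6, 9 and 10, against 22.1, 97.9 and 257 CPM in BM mice 2, 4 and 5. Mouse 5 was the highest in Isg15 as in Ifitm3 and Ifitm1.

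The difference of the BMT effect from liver was called for 16 of the 23 effectors in code SI and 18 in code LI, all in the direction of gut, where 6.32 and 8.13% of all genes were called in that direction. The 16 of code SI were 9 without mouse 6, 10 without mouse 9 and 7 without mouse 4, while the 18 of code LI ran from 15 to 19 over left-out mice. The inhibitor gene Usp18 differed by 3.32 ± 0.65 and 3.59 ± 0.64 in log2 units (adjusted p = 0.00358 and 0.00137). Between code SI and code LI the difference was called for 2 effectors, Mx1 and Oas2, both lower in code SI, where 2.51% of genes were called lower.

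**Figure D4:**
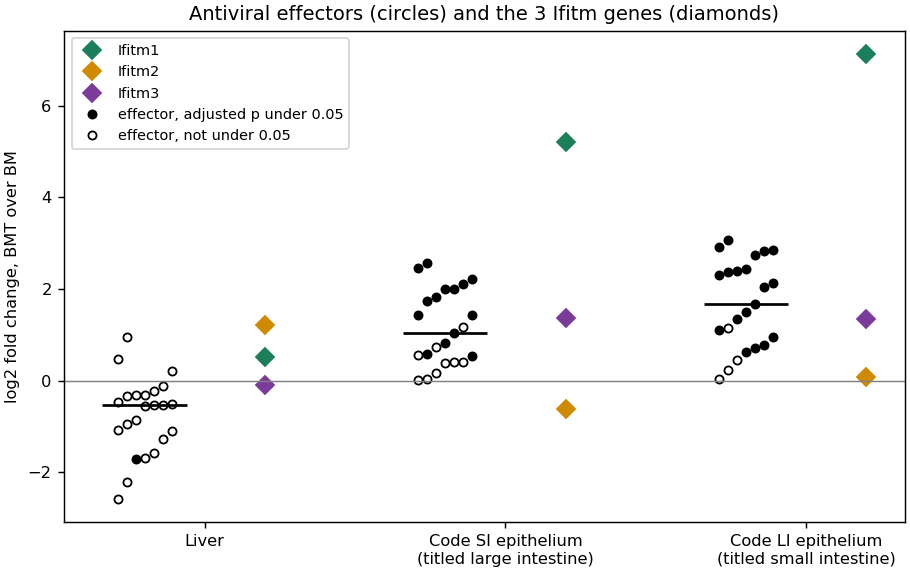
Log2 fold change of BMT over BM for 23 antiviral effector genes (circles, filled where the adjusted p is under 0.05, lines at the medians) and for the 3 Ifitm genes (diamonds) in each tissue. The effector medians are -0.54 in liver, 1.05 in code SI and 1.68 in code LI; Ifitm2 lies below the median in both gut sets and above it in liver.

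Other genes of virus entry gave 1 large change. Ly6e, an interferon-induced surface protein that limits coronavirus entry, stood at 482, 824 and 763 CPM in BMT mice 6, 9 and 10 of code LI, against 34.1, 31.7 and 34.8 CPM in BM mice 2, 4 and 5. In code SI it stood at 254, 412 and 172 CPM in the same BMT mice, against 41.7, 39.95 and 62.8 CPM in the same BM mice. It rose by 4.38 ± 0.22 in code LI and 2.57 ± 0.29 in code SI (adjusted p = 2.67e-07 and 0.000118), and was at -0.71 ± 0.20 in liver (adjusted p = 0.0577). The BMT effect on Ly6e in code SI minus that in code LI was -1.76 ± 0.35 on the log2 scale (adjusted p = 0.00938). Of the 10 genes in that list, 1 rose in code SI, 2 rose and 1 fell in code LI, and 2 rose and 1 fell in liver, beside 23.4, 41.4 and 10.8% of all genes called in those tissues. With any single liver library other than BM mouse 5 left out, 1 rose and none fell in liver, and the fall in code LI was lost without BMT mouse 6, BMT mouse 9, BM mouse 4 or BM mouse 5. In liver the cathepsin gene Ctss rose by 1.38 ± 0.21 and the cholesterol transporter gene Npc1 fell by 0.64 (log2, adjusted p = 0.00682 and 0.03).

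Genes for proteins known to bind or modify IFITM3 moved in both directions. Fyn, a kinase that phosphorylates human IFITM3 and is also abundant in T cells, rose by 2.80 ± 0.35 in code SI and 3.25 ± 0.23 in code LI (adjusted p = 0.000248 and 2.84e-06). Setd7, a methyltransferase that acts on human IFITM3, fell by 0.76 and 0.78 (log2, adjusted p = 0.0181 and 0.00109). Zdhhc1, a palmitoyltransferase, fell by 1.11 in code LI (adjusted p = 0.000856). In liver 1 of the 10 changed, the tetraspanin gene Cd9, which rose by 1.6 ± 0.24 (adjusted p = 0.00634). The list gave 1 rise and 2 falls in code SI and 3 rises and 3 falls in code LI, beside 23.4 and 41.4% of all genes called there and 10.8% in liver. No fall was called in code SI without BMT mouse 6 or BM mouse 4, only 1 rise in code LI without BM mouse 2, and 4 rises in liver without BM mouse 5.

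Several stem cell and Wnt genes, which mark the crypt base, fell in the epithelium of BMT mice. Of 12 tested, 9 fell and none rose in code SI (1 had a higher value at an unadjusted p under 0.05, and DESeq2 called none), and 5 fell and 2 rose in code LI, where 3 fell without BM mouse 2 or BM mouse 5. Among all genes 11.8% were called lower in code SI, and 41.4% were called in either direction in code LI. The stem cell marker Lgr5 fell by 1.59 and 2.75 (log2) in code SI and code LI (adjusted p = 0.000104 and 0.000179). Olfm4 fell by 1.72 in code SI (adjusted p = 5.4e-05). Cd44 rose by 1.16 ± 0.17 in code LI (adjusted p = 0.000367). The list median log2 fold change was -1.08 in code SI and -0.10 in code LI, beside 0.02 and 0.00 over all genes. A relation of this list to the Ifitm values was not tested.

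T cell transcripts, like Ifitm1, were higher in BMT than in BM gut libraries. The 10 T cell markers summed to 316 to 509 CPM in BMT and 6.52 to 8.82 CPM in BM libraries of code LI. The sum was 172 to 259 CPM in BMT and 4.16 to 12.8 CPM in BM libraries of code SI, and 59.95 to 61.4 CPM in BMT and 3.44 to 6.48 CPM in BM livers. All 10 were detected in every BMT library, and Cd5 was at 0 in the BM libraries of code LI. In BMT mice code LI had the higher T cell sum and Ifitm1 level, and its macrophage and neutrophil marker sums were higher too. Among BMT mice 6, 9 and 10 the T cell sums of code LI were 508.5, 455.2 and 315.8 CPM, with Ifitm1 at 64.5, 51.4 and 58.9 CPM. In code SI they were 172.5, 259.3 and 220.5 CPM, with Ifitm1 at 10.6, 14.9 and 17.3 CPM. The order of mice thus differed between the sum and Ifitm1 in both sets.

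Per unit of that sum, Ifitm1 was at 0.113 to 0.187 in BMT and 0.0313 to 0.0752 in BM libraries of code LI. The ratio was 0.0574 to 0.0783 in BMT and 0.0326 to 0.103 in BM libraries of code SI, where the groups overlapped. Liver gave 0.190 to 0.225 in BMT and 1.73 to 2.56 in BM, so that the BM livers held Ifitm1 at similar levels with few T cell transcripts. The 5 B cell markers summed to 0.429 to 1.03 CPM in BMT and 0.135 to 0.156 CPM in BM libraries of code LI, without overlap, and to 0.729 to 1.33 CPM in BMT and 0.716 to 1.55 CPM in BM libraries of code SI, while 2 of the 5, Pax5 among them, were at 0 in all gut libraries. Endothelial markers summed to 6.15 to 7.42 CPM in BMT and 5.07 to 5.86 CPM in BM libraries of code LI, and to 3.60 to 4.83 CPM in BMT and 3.78 to 4.82 CPM in BM libraries of code SI. Macrophage markers summed to 97.1 to 158 CPM in BMT and 40.2 to 43.2 CPM in BM libraries of code LI, and to 32.3 to 42.7 CPM in BMT and 18.1 to 28.8 CPM in BM libraries of code SI. Of 8 macrophage markers tested in code SI, 2 rose (Ccr2 and Ly6c2) and 1 fell (Itgam, edgeR, adjusted p = 0.0254). In code LI 7 of 8 rose and none fell. Among all genes 11.6% were called higher and 11.8% lower in code SI, and 20.4% higher in code LI. The part of any of these cells in the Ifitm values was not tested, and in bulk samples more cells of a type and more RNA per cell cannot be told apart.

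**Figure D5:**
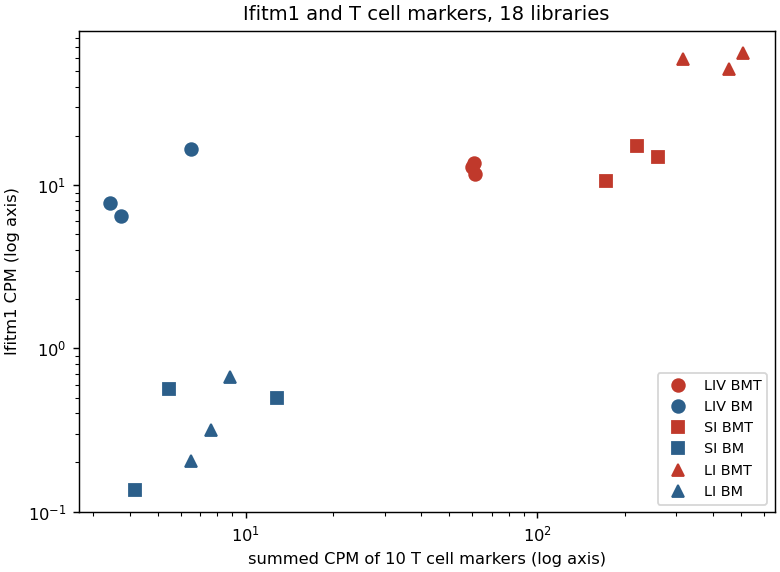
Ifitm1 level against the summed level of 10 T cell markers in each of the 18 libraries, both in CPM on log axes (BMT red, BM blue, 1 symbol per tissue). BM livers lie at 6.46 to 16.6 CPM of Ifitm1 with T cell sums of 3.44 to 6.48 CPM, whereas BM gut libraries with similar sums lie at 0.664 CPM or less.

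Genes whose pattern was most like each of the 3 were taken from 10488 genes by Pearson correlation of log2(CPM + 1) over the 18 libraries with tissue means taken off. For Ifitm1 these were Ppp1r16b, Laptm5, Cyth4, Itgal and Gimap6, with r of 0.98 to 0.99. Itgal encodes the integrin chain of LFA-1 on leukocytes, and Laptm5 a lysosomal protein of blood cells. Ifitm2 had Lgmn, Kcnn4, Orai2, Zc3h12a and Slc1a5, with r of 0.91 to 0.93. Ifitm3 had the class I-like genes H2-T22 and H2-T10, the immunoproteasome gene Psmb8, Aars and Rab35, with r of 0.93 to 0.94. The libraries share tissue and treatment groups, so these are descriptions, and H2 genes share reads among close copies.

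Another scale changed much of these lists. With log2(CPM + 5) 1, 1 and 5 of the 5 genes recurred for Ifitm1, Ifitm2 and Ifitm3, and without taking off tissue means 1, 0 and 0 recurred. Among themselves, Ifitm1 and Ifitm3 had an r of 0.80 on the same 18 points, Ifitm1 and Ifitm2 -0.16, and Ifitm2 and Ifitm3 -0.06. Without taking off tissue means the same pairs had an r of 0.54, 0.13 and 0.81, so that the value of Ifitm2 with Ifitm3 turned on that step.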

How the data were processed

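Gene counts from 18 RNA-seq libraries were used as the authors deposited them, whole numbers in 1 table, with exon lengths and coordinates per the file headers. Per the submitters' processing notes FastQC 0.11.9, STAR 2.7.0e, featureCounts 1.6.3 and GRCm38.p5 were used. The sources used here do not give the annotation release or strand setting, so reads of close copies, or of genes on opposite strands, may have been lost or shared. Symbols for 53274 of the 53379 IDs came from GENCODE mouse release M21, and 0.00257% of counts lay in unmatched IDs.

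CPM used the column totals. Each tissue was fitted with edgeR 4.0.16 (expression filter with a minimum count of 10, TMM scaling, two-sided quasi-likelihood F-test, Benjamini-Hochberg adjustment over all genes tested, calls at 0.05), and the SE is the fold change over the square root of F. Tissue differences of the BMT effect and BM tissue contrasts used 1 fit each with mouse as a term. Same-mouse libraries deviated together at r of -0.23 to 0.38, so the pairing rests on the descriptions. The labels do not say that replicates are separate animals, so the p-values cover only the spread among these libraries, which may be technical. Alternatives were DESeq2 1.42.0, no low-count filter, upper-quartile scaling, replicate block, lane L002 only, and leaving out each library or mouse.

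The 3 genes, gene lists and markers were chosen with earlier results of these data known. Tests of the 3 genes between tissues in BM mice were planned and are not given, because those libraries enter the contrasts that chose them. Genes named are the Ifitm family, the 2 members of each list with the smallest p per tissue, 8 further interferon genes (1 of them is not reported here), the 5 genes most like each, and called neighbours within 100 kb. Single genes named beyond these (Mx1, Oas2, markers) were chosen after their values were seen. The fits were tested on simulated data. Promoters are from RefSeq.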

Additional observations from a re-analysis of the deposited data

Results flagged for a closer look

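The effect of T cells differed between tissues for several genes, each as a log2 difference of the BMT effect from the single fit over 18 libraries. For code SI minus liver the differences at an adjusted p under 0.05 (edgeR) were 6.06 for Ifng, 1.13 for Irf1, 2.61 for Isg15, 3.32 for Usp18, 2.45 for Bst2 and -5.90 for Ifitm6. For code LI minus liver they were 4.97 for Ifng, 1.32 for Irf1, 2.26 for Irf7, 4.57 for Isg15, 3.59 for Usp18, 2.62 for Bst2 and 5.50 for Ifitm10. Both sets share the liver libraries. The Ifng and Ifitm10 values depend on gut BM groups with 0 to 2 counts, so they are not bounds. The Ifitm6 value rests in part on 2 summed counts in BMT and 7 in BM libraries of code SI. Of these 7, 6 were in BM mouse 2. Leaving out single mice ended the call for Ifng (adjusted p up to 0.158 without mouse 5), Isg15 in code SI (up to 0.15 without mouse 4), Ifitm6 (0.388 without mouse 2) and Ifitm10 (0.0766 without mouse 5).

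Ifitm2 lay higher in every BMT liver than in any BM liver whereas in code SI each BMT library lay below all BM libraries, a difference of -1.87 on the log2 scale. That difference was not tested, since it is among those that chose the gene.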

How the results depend on the processing

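The BMT against BM log2 fold changes of Ifitm1, Ifitm2 and Ifitm3 moved by less than 1 SD of their replicates under all alternatives run, except Ifitm1 in code LI, at 6.85 to 7.80 when single libraries were left out. The replicate block by title number, with BM and BMT from different mice, gave 0.60, 1.22 and 0.02 in liver, 5.21, -0.65 and 1.29 in code SI, and 7.18, 0.08 and 1.36 in code LI for Ifitm1, Ifitm2 and Ifitm3. Deviations of same-numbered libraries correlated at -0.27 to 0.47, so these numbers do not pair the samples. In BM mice, over left-out mice, the difference between code SI and code LI ran from -0.56 to 0.33 for Ifitm1 and from 0.51 to 0.61 for Ifitm2, and that between code SI and liver from -2.13 to -1.78 for Ifitm2. Counts of called genes ran from 569 to 2617 in liver and 2086 to 3775 in code SI with single libraries left out. With single mice left out they ran from 1144 to 2504, 1844 to 3165 and 297 to 1121 for the tissue differences (code SI minus liver, code LI minus liver, code SI minus code LI), and from 2215 to 4174 for the BM gut sets. For code SI minus code LI, DESeq2 called 1313 and no filter 1842 genes, and upper-quartile scaling changed the split of 415 higher and 433 lower to 323 and 527.

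With TMM-scaled totals the levels per kb were 18.2 for Ifitm1, 723 for Ifitm2 and 1668 for Ifitm3 in BMT livers and 303 for Ifitm2 in BM livers, 44.2 for Ifitm1 and 56.2 for Ifitm2 in BMT and 53.2 for Ifitm2 in BM libraries of code LI, and 77.2 for Ifitm2 and 96.1 for Ifitm3 in BM libraries of code SI. Without mitochondrial genes Ifitm2 was at 103 in BM libraries of code SI, and at 73.0 in BMT and 72.0 in BM libraries of code LI.

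In liver, signs turned with lane L002 alone for Irf1 (0.25), Usp18 (0.45) and Bst2 (0.16), and with the block for Usp18 (0.20). Leaving out single libraries gave Bst2 -0.90 to 0.01, Irf1 -0.73 to 0.11, Socs1 -0.39 to 2.76 and Usp18 -0.58 to 0.51. Over left-out mice the difference from liver was -0.68 to 2.18 (code SI) and -0.25 to 2.96 (code LI) for Socs1 and -2.69 to 1.25 for Ifitm6 in code LI. Between the gut sets it was -0.46 to 0.14 for Bst2, -1.21 to 1.6 for Ifng and -0.77 to 0.35 for Usp18. The cause was not tested. Depth limits Ifitm1 in the BM gut and the scarce family members.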
